A study of Mus musculus with 5 samples.

Results

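Glutathione, glucuronide and sulfate conjugation genes were followed through the Argonaute (Ago) binding tables of developing mouse liver. The members were all gene symbols of the Gsta, Gstm, Gstp, Gstt, Gstk, Gsto, Gstz, Ugt1, Ugt2, Ugt3, Sult1, Sult2 and Sult5 families, found by symbol. Of 59 such protein-coding genes in the GENCODE vM21 annotation, 47 had at least 1 Ago cluster in the coding sequence (CDS), 3′UTR or 5′UTR of their mRNA in at least 1 table, out of 14348 gene symbols with such a cluster. Sult1c1 and Sult2a4 were listed under introns or noncoding exons only. No entry was listed for Gsta1, Gsta2, Gsto2, Gstp3, Gstt4, Sult1b1, Sult1e1, Sult2a7, Sult2a8 and Ugt2a2.

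The measurements came from HITS-CLIP, in which RNA is crosslinked to Ago protein by UV light, precipitated with an Ago antibody and sequenced. Livers of C57BL/6 mice (C57BL/6J in the methods) were taken at the embryonic days named e12.5, e15.5 and e18.5, on postnatal day 7 (P7) and from adult mice, with 1 table of miRNA-target interactions for each stage. Values given in stage order below run from the youngest embryo to the adult. The embryonic livers were precipitated with Ago2 antibodies, and an Ago1 antibody was added at P7 and in adult liver, so a difference between these and the embryonic tables cannot be told apart from a difference in antibody. A cluster is a stretch of overlapping reads, and a table holds only clusters with a seed match to a miRNA, that is, a match to bases 2 to 7 or 2 to 8 at the 5′ end of the miRNA. As in the tables, an A opposite base 1 counts as a further base of a site, paired or not.

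Conjugation makes drugs, bile pigments, steroids and reactive compounds water soluble. Glutathione S-transferases (Gst genes) join them to glutathione, UDP-glucuronosyltransferases (Ugt genes) to glucuronic acid and sulfotransferases (Sult genes) to sulfate. Hepatocytes carry out much of this work, and many of the enzymes are known to appear around and after birth, when the liver ceases to be a site of blood formation.

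The highest read number of each cluster was summed per gene and divided by the same sum over all clusters of the table, which ran from 13008703 at e18.5 to 44867326 at e12.5. The level is given below in RPM, reads per 1000000 of these cluster reads. The read column of the e12.5 table is headed as reads in the miRNA target and that of the other tables as reads in the peak, and whether both are the same measure is not known. Clusters in mRNAs held between 13.5% of the reads in adult liver and 30% at e18.5. In whole liver, fewer cells of a type and less RNA per cell cannot be told apart, and the amount of each mRNA was not measured in these tables. The 8 hepatocyte markers (Alb, Apoa1, Ttr, Cps1, Ass1, Tat, Serpina1a and Trf) summed to 752.8, 2396, 6475, 7725 and 9537 RPM in stage order, and all 8 were at least 2-fold higher in adult liver than at e12.5. Of the 9 erythroid markers, 8 had clusters, and all 8 were lower in adult liver. Their sum was 66389, 89837, 96332, 34545 and 1632 RPM in stage order, and Epb42 had no cluster in any table. Endothelial markers summed to 13.8, 34.8, 59.1, 184 and 146 RPM, leukocyte and megakaryocyte markers to 42.7, 117, 257, 78.7 and 18.9, stellate markers to 31.2, 25.8, 63.4, 134 and 44.2, and biliary markers to 0.802, 0, 18.7, 3.82 and 5.06. The part of this change in cell makeup in the results below was not tested.

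Ago clusters on the conjugation genes became more frequent from late gestation to adult liver. The members had 82, 59, 39, 176 and 307 mRNA clusters in stage order. These were 0.0862% (95% Wilson interval 0.0695 to 0.107), 0.131% (0.102 to 0.169), 0.0918% (0.0672 to 0.126), 0.220% (0.190 to 0.255) and 0.574% (0.513 to 0.641) of all mRNA clusters in the same order, and these and the later intervals cover counting error only. The 3 embryonic shares overlapped in part, and those of P7 and adult liver lay above them and apart from each other. The number of member genes with a cluster was 30, 20, 25, 42 and 43. Their reads summed to 80.5, 141.8, 141.9, 345.8 and 811 RPM, and the adult sum was 10.1-fold that of e12.5. The Cyp1 to Cyp4 genes, which oxidise many of the same substrates, summed to 36.5, 107, 599.9, 876 and 3098 RPM, with an adult sum 85-fold that of e12.5.

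Most of the difference lay in the Ugt genes, which summed to 25.4, 69.4, 70.7, 239 and 635 RPM in stage order. Gst genes summed to 55.1, 70.3, 56.9, 73.3 and 142 in the same order and led at e12.5 only, being level with the Ugt genes at e15.5. Sult genes had no mRNA cluster at e12.5 and summed to 2.12, 14.4, 33.2 and 34.2 from e15.5 onward. Adult over e12.5 was thus 25-fold for the Ugt sum and 2.58-fold for the Gst sum, while the hepatocyte markers were 12.7-fold higher. Per 1000 reads of these hepatocyte markers, the members had 107, 59.2, 21.9, 44.8 and 85.1 reads in stage order. Relative to that list the members were therefore lowest at e18.5, and the adult value did not exceed that of e12.5. The Ugt genes alone had 33.7, 29.0, 10.9, 31.0 and 66.6 reads per 1000, and the Gst genes 73.2, 29.3, 8.78, 9.49 and 14.9.

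**Figure D1:**
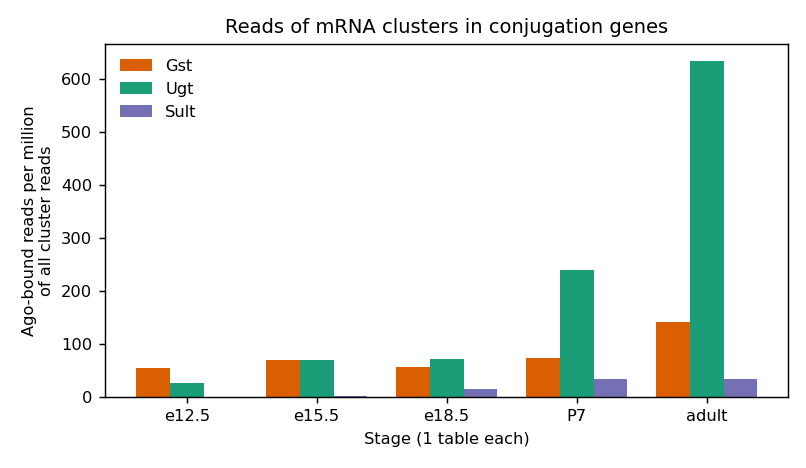
Bars give the summed RPM for the mRNA clusters of Gst, Ugt and Sult genes at each stage, with 1 table per stage and no error bars. The Ugt bar grows from 25.4 at e12.5 to 635 in adult liver, while the Gst bar stays between 55.1 and 73.3 until P7 and reaches 142 in adult liver.

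Gene by gene, adult liver was compared with e12.5 over genes with a mean of at least 2 RPM over the 5 tables, a filter that 32 of the 47 members passed. With 1 table per stage the comparison has no replicate check, and a gene absent from a table was set to 5 reads, the lowest number listed, which makes its fold a bound. Of the 32 members, 28 were at least 2-fold higher in adult liver, where 21.3% of the 9251 genes past the filter were, and 3 were at least 2-fold lower, where 53% of all genes were. In 24 of the 32 members the adult level was the highest of the 5 tables, as it was in 9.42% of all genes past the filter. The median log2 ratio was 5.87 for the members, -1.18 for all genes and 7.89 for 47 Cyp1 to Cyp4 genes past the filter. Without the filter, 36 of 47 members were higher and 4 lower, against 22.2% and 45.8% of all 14348 genes. The 9 Ugt1a symbols share exons and so are not separate observations, and with Ugt1a1 standing for the locus 20 of 24 were higher (13 of the 17 with a cluster in both tables). All 9 symbols are counted in the 24 of 32 and in the member median, with log2 ratios of 5.98 to 8.25. Of the 32 member ratios, 7 were bounds, as were 1582 of the 9251 over all genes. Scaled to mRNA cluster reads alone, which moves every log2 ratio of this comparison by 0.79, 28 members were higher and 0 lower, with 29.8% of all genes higher (29.1% without 66 genes that had no adult cluster) and 40.4% lower.

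**Figure D2:**
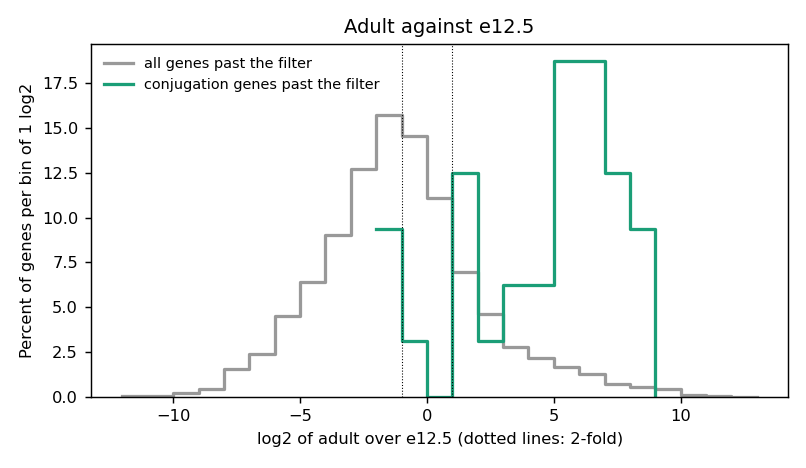
The x axis is the log2 of adult over e12.5 RPM and the y axis the percent of genes in each bin of 1 log2 unit, for the 32 conjugation genes (green) and all 9251 genes (grey) past the filter. Dotted lines mark 2-fold. Most green area lies to the right of the upper line, while the grey curve has its median at -1.18.

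The step across birth was smaller and mixed. From e18.5 to P7, 20 of the 32 members were at least 2-fold higher (24.5% of all genes) and 3 were lower (33.7% of all genes), with a median log2 ratio of 1.39 against -0.36 over all genes. Between P7 and adult liver, where both tables had the same antibodies, 22 members were higher (9.17% of all genes) and 0 lower (49.2% of all genes). The median log2 ratio of that step was 1.19 against -0.97. On the scale of mRNA cluster reads, 26 members were higher and 3 lower at P7 than at e18.5, with 31.9% of all genes higher and 22.4% lower (26 and 3, with 30.4% and 23.9%, by the library totals of the study). The study lists a further e18.5 library, and whether the e18.5 table holds its reads is not stated. With both e18.5 totals as denominator 30 members were higher, 1 of them without a cluster at P7, and 0 lower, with 83.3% and 2.52% of all genes. With the most-read cluster of a gene in place of the sum, 7 of 26 members were higher and 3 lower at P7 than at e18.5, with 13.9% and 55.1% of all genes. On the scale of mRNA cluster reads 25 were higher and 0 lower in adult liver than at P7, with 16.7% and 34.4%. With 1 symbol for the Ugt1a locus, 14 of 24 members were higher at P7 than at e18.5 (7 of the 16 with a cluster in both tables), and 14 of 24 in adult liver than at P7. By family, all 19 Ugt genes past the filter, 9 of them Ugt1a symbols, were higher in adult liver than at e12.5, as were 7 of 11 Gst genes and both Sult genes. Between e18.5 and P7, 16 of the 19 Ugt genes were higher and 0 lower, and 4 of the 11 Gst genes were higher and 3 lower.

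**Figure D3:**
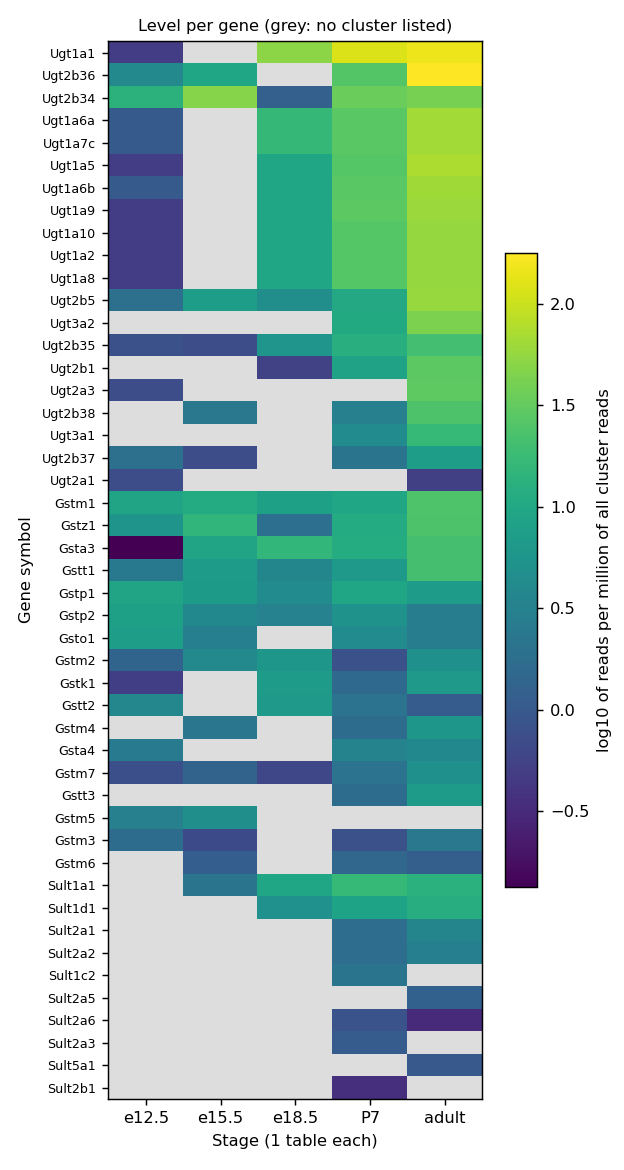
Rows are the 47 members grouped as Ugt, Gst and Sult and ordered by mean level within each group, columns are the 5 stages, and colour gives log10 of RPM. Grey cells have no cluster listed. The Ugt rows brighten from P7 to adult liver, the Ugt1a rows are grey at e15.5, and most Sult rows are grey before P7.

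Ugt1a1, the enzyme that conjugates bilirubin, had the highest mean level of all members. It had 0.490 RPM at e12.5, no cluster at e15.5, then 51.7, 123.1 and 149 RPM. It therefore was near or at the lower limit in the first 2 tables and high in the last 3. The Ugt1a locus on chromosome 1 (mm10, chr1:88055388-88220002, plus strand) gives 9 symbols that differ in their upstream exons and have the later exons in common, so clusters in the common exons do not separate the symbols. Some clusters in the upstream exons were listed for 2 symbols too. Clusters in Ugt1a1 mRNA alone had 42.2, 95.9 and 92.3 RPM at the last 3 stages. Clusters in exons of all 9 symbols had 0.490 at e12.5 and 9.46, 27.2 and 57.0 at the last 3 stages. The Ugt1a1 exon was thus level between P7 and adult liver while the common exons had 27.2 and 57.0 RPM. Clusters in Ugt1a5 alone were seen in adult liver only, at 15.7 RPM over 9 clusters. Clusters listed for 2 symbols, Ugt1a7c with Ugt1a6a or Ugt1a6b, had 8.28 RPM over 5 adult clusters. All adult clusters listed for Ugt1a6a, Ugt1a6b, Ugt1a2, Ugt1a8 or Ugt1a10 alone had central bases that occur at 2 places, so their reads cannot be assigned to 1 symbol. No Ugt1a symbol had a cluster at e15.5.

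A single cluster in exon 1 of Ugt1a1 held much of this signal. In adult liver it lay at chr1:88212178-88212292 (plus strand, CDS) with 1372 reads, or 55.1 RPM, and at P7 it had 1394 reads, or 84.5 RPM. At e18.5 clusters inside the same stretch had 440 reads over both lists of that table, or 33.8 RPM. Of these, 413 were in a cluster of the first list, which was the largest single member cluster at e18.5 with 22.4% of all member reads, and the P7 cluster was the largest of its table with 24.4%. None of the miRNAs matched there was among the 100 most abundant at e18.5 or P7. The most abundant one was miR-362-5p, of rank 134 at e18.5 and 114 at P7, with a 6mer match. In adult liver miR-23b-3p, of rank 32, had a match of 7 bases, but over that site the cluster held 138 of its 1372 reads. The miRNA of highest rank under the most-read bases was miR-183-5p, of rank 171 at P7 and 225 in adult liver. Ranks here follow the whole number that each interaction name carries for its miRNA, read here as its number of reads and not scaled to the depth of the table.

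The last common exon held the most-read match to miR-122-5p, a miRNA known for its abundance in hepatocytes, among the members. The matched stretch is shown because it is present at 3 stages and is listed for all 9 symbols, with the 6 matched bases in capitals, on the plus strand of mm10 at chr1:88218266-88218287 in the last exon, listed as CDS and 3′UTR.
Ugt1a common exon, miR-122-5p site: acctggtatcagtacCACTCCt
Reads over this site numbered 71, 35 and 459 at the last 3 stages, and no cluster overlapped it at e12.5 or e15.5. The other miR-122-5p sites in members were a 6mer in Ugt1a5 with 26 reads and a 6mer in Ugt3a2 with 9 reads at P7 and 19 in adult liver. A miR-122-5p site was present in 3 of 270 CDS clusters of the members in adult liver (1.11%, 0.379 to 3.22), against 3.09% (2.93 to 3.27) of all CDS clusters, and in 2 of 155 (1.29%, 0.355 to 4.58) at P7 against 2.40% (2.28 to 2.54). The intervals overlapped at both stages. Over all mRNA clusters of adult liver the share was 0.977% (0.333 to 2.83) against 3.32% (3.17 to 3.47), and these intervals did not overlap.

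Ugt2b36 had the highest listed level of any member in a single table, most of it in a cluster that cannot be told apart from Ugt2b38. It had 3.99 and 9.14 RPM in the first 2 tables, no cluster at e18.5, then 25.8 and 179 RPM. Per kilobase of its longest mRNA the adult level was 94.6, with 67.1 for Ugt1a1 and 31.8 for Ugt2b5. From clusters found at 1 place alone Ugt2b36 had 17.6 RPM at P7 and 64.6 in adult liver, the latter below the 149 of Ugt1a1. Ugt2b genes glucuronidate steroids, bile acids and many drugs, and in mouse they lie side by side on chromosome 5. The most-read adult clusters of Ugt2b36, Ugt2b5 and Ugt2b35 lay at one position of the coding sequence, in exon 5, and held a match to the seed of miR-148a-3p, miR-148b-3p and miR-152-3p. Ugt2b34 and Ugt2b37 had clusters with the same match that were not their most-read ones, which had 327 and 77 reads. These 3 miRNAs have the same bases 2 to 8, shown in capitals in the mature sequences from RefSeq (GRCm38.p6).
miR-148a-3p: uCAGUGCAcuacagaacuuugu
miR-148b-3p: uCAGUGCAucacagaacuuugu
miR-152-3p: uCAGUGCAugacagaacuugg
The target stretches are given 5′ to 3′ on the strand of the gene with the bases that pair with the seed in capitals, and they are set side by side to show what the genes have in common.
Ugt2b36: tcagatttgctcaaTGCACTGg
Ugt2b5: tcagatgtgctcaaTGCACTGg
Ugt2b35: tcagatttgctcaaTGCACTGg
Ugt2b37: agatgtgctcaaTGCACTGg
Ugt2b34: acagatttgcacacTGCACTGA
In mm10 these are chr5:87080892-87080913 (minus strand) for Ugt2b36, chr5:87127700-87127721 (minus) for Ugt2b5, chr5:87008317-87008338 (plus) for Ugt2b35, chr5:87242295-87242314 (minus) for Ugt2b37 and chr5:86892765-86892786 (minus) for Ugt2b34. All are in the CDS. The match was of 7 bases in the first 4 genes and of 8 bases in Ugt2b34, where the final capital is the A opposite base 1 of the miRNA.

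Reads at this position were concentrated in adult liver. The Ugt2b36 cluster had 2635 reads in adult liver, or 105.9 RPM and 13.1% of all member reads. Its earlier values were 3.72, 1.33, 0 and 6.85 RPM in stage order. The Ugt2b5 cluster had 629 adult reads (25.3 RPM) and 1.64 RPM at P7, with no overlapping cluster in the embryonic tables. Ugt2b34 had 249 adult reads (10.01 RPM), 1.15 RPM at P7 and 1.67 at e12.5, and Ugt2b35 had 180 (7.23 RPM), 3.09 and 0.178. The Ugt2b37 cluster had 10 adult reads and no counterpart in another table. In all 5 genes the adult value was the highest. The 30 bases at the centre of the Ugt2b36 cluster also occur once in exon 5 of Ugt2b38, so reads of these 2 genes cannot be told apart there, while those of Ugt2b5, Ugt2b35, Ugt2b34 and Ugt2b37 were found at 1 place. The same stretch also matched miR-199a-5p (7 bases) in all of these genes but Ugt2b34 and miR-130a-3p (6 bases) in all 5, so the miRNA that was bound cannot be read from the cluster.

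The seed match itself was a feature of the family. The 7 letters TGCACTG, searched on the coding strand only, occurred in the coding sequence of 9 of the 10 Ugt2a and Ugt2b genes, against 30 of 166 coding sequences (18.1%) of the same length range, 1584 to 1602 nt, which include them. In Ugt2b5, Ugt2b36, Ugt2b37 and Ugt2b38 the match began at nt 1284 of the coding sequence, in Ugt2b35 at 1281 and in Ugt2b34 at 1290. In Ugt2a1 and Ugt2a2 it began at nt 836 and in Ugt2a3 at 839, and Ugt2b1 had none. The genes are related by descent, so these are not separate occurrences. Over all members, miR-148a-3p sites were listed in 9 genes in adult liver, in 7 of 270 CDS clusters (2.59%, 1.26 to 5.25) against 1.93% of all CDS clusters (1.8 to 2.07). The share of clusters was thus not distinguishable from that of all genes, and what stood out was the read number of 1 position. miR-148a-3p was chosen for this description after its sites had been seen. Its number in the interaction names was 2092, 1129, 1103, 2848 and 6374 from e12.5 to adult liver, with rank 91 of 585 miRNAs in adult liver, and that of miR-152-3p was 5780, 1247, 3914, 8995 and 11816, with rank 74.

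**Figure D4:**
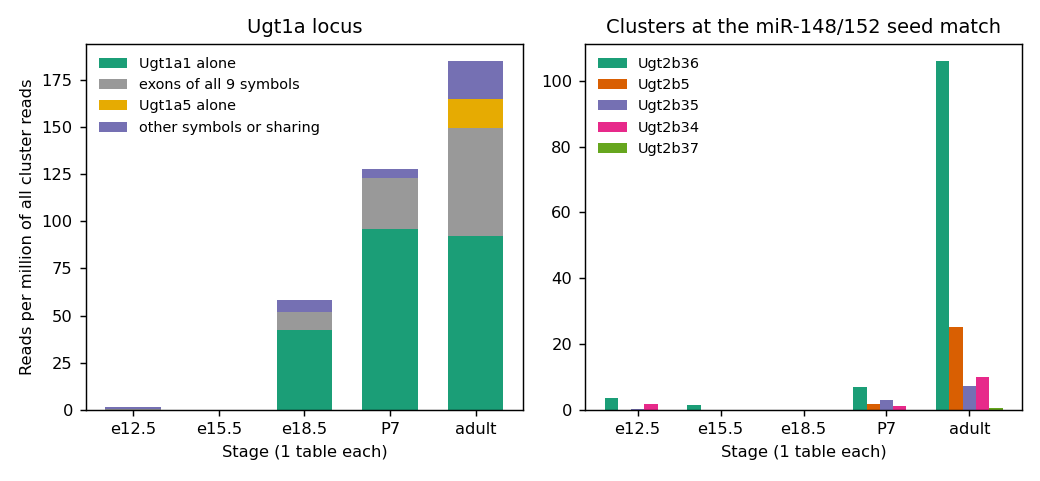
Both panels give RPM by stage, with 1 table per stage and no error bars. On the left, stacked bars split the Ugt1a locus into clusters of Ugt1a1 alone (92.3 in adult liver), of exons common to all 9 symbols (57.0), of Ugt1a5 alone (15.7) and the remainder. On the right, bars give the clusters at the seed match shared by miR-148a-3p and miR-152-3p in 5 Ugt2b genes, of which Ugt2b36 reaches 105.9 in adult liver.

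The other Ugt2 and Ugt3 genes differed in when they appeared. Ugt2b34 had 13.8, 48.9, 1.23, 35.0 and 40.5 RPM in stage order, so that in RPM its highest table was e15.5 and its lowest e18.5. The order of e15.5 and adult liver depends on the scale, as mRNA clusters held 29.7% and 13.5% of reads there. Ugt2b34 is next given by its share of member reads and by list. It held 17.1% and 34.4% of member reads at e12.5 and e15.5. At e12.5 this rested on the second of the 2 lists, with 585 reads (19.5 RPM) against 33 (2.23 RPM) in the first, where Gsto1, Gstm1, Gstz1 and Gstp1 were among those above it. Its log2 ratio of adult over e12.5 was 4.18 with the first list and 1.06 with the second. Ugt2b5 had 1.89, 7.63, 4.69, 10.2 and 59.1 RPM, and Ugt2b35 0.802, 0.726, 5.69, 12.1 and 20.9. Ugt2b1 was absent at e12.5 and e15.5 and had 0.538, 8.43 and 29.1 from e18.5 on. Its strongest adult cluster (181 reads, exon 1) held an 8mer for miR-23a-3p and miR-23b-3p at chr5:86925953-86925973 (minus strand), with the matched bases in capitals.
miR-23a-3p: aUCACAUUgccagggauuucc
Ugt2b1: tgtcctggatacaAATGTGAA
Ugt2a3, an enzyme of bile acid conjugation, had 0.736 RPM in the youngest table and 30.1 in the adult one, with no cluster at the 3 stages in between. Its value in the youngest table is 1 cluster of 33 reads whose central bases occur at 3 places, with the same number listed for Ugt2a1 and Ugt2b34, so it cannot be assigned to Ugt2a3. Ugt3a2 and Ugt3a1, which use sugars other than glucuronic acid, had no cluster in the 3 embryonic tables. Ugt3a2 had 10.7 RPM at P7 and 43.6 in adult liver, and Ugt3a1 had 4.30 and 16.4, so clusters of both were listed after birth only. From clusters found at 1 place alone Ugt3a2 had 4.36 and 36.3 RPM at these stages, and Ugt3a1 had 0 and 3.90. The P7 reads of Ugt3a1 therefore cannot be assigned to that gene. Of the remaining Ugt2 genes past the filter, Ugt2b38 had 23.8 and Ugt2b37 had 7.31 RPM in adult liver, both more than in any other table.

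The glutathione S-transferases held 11 genes past the filter, of which 7 were at least 2-fold higher in adult liver than at e12.5 and 4 were not. Below the filter, Gstm7, Gstt3 and Gstm6 were higher and Gsta4, Gstm3 and Gstm5 were not. Gsta3, an alpha-class enzyme of liver, had 0.134, 9.02, 15.8, 11.5 and 21.3 RPM in stage order. It thus was already higher before birth, and its e12.5 value rests on 1 cluster of 6 reads. Gstm1, the main mu-class enzyme, had 8.96, 11.1, 8.07, 9.46 and 24.5, level until P7 and 2.59-fold higher in adult liver than at P7. From clusters found at 1 place alone it had 7.39 RPM at P7 and 13.2 in adult liver, less than 2-fold apart. Its log2 ratio of adult over e12.5, 1.45, was 0.76 with the first list and 0.72 with the highest cluster, below 2-fold. It was 1.97 with the second list and 2.24 on the scale of mRNA cluster reads. Gstz1, which isomerises maleylacetoacetate in tyrosine breakdown, had 5.53, 15.3, 1.85, 11.1 and 24.2, and Gstt1, a theta-class enzyme, 2.43, 7.08, 3.61, 6.55 and 21.3. Gstk1, found in mitochondria and peroxisomes, had 0.513, none, 6.995, 1.58 and 6.55 RPM. Gstm2 likewise had its highest value in RPM at e18.5 and its lowest at P7, at 6.00 and 0.788, with 4.90 in adult liver. For both genes the order of e18.5 and adult liver depends on the scale, as mRNA clusters held 30% and 13.5% of reads there. From clusters found at 1 place alone Gstm2 had none before adult liver and 1.53 RPM there. Gstm4 had 0, 2.24, 0, 1.70 and 6.07 RPM in stage order.

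Summed over their clusters, the pi-class genes, Gsto1 and Gstt2 were not higher in adult liver. Gstp1 had 9.03 RPM at e12.5, 6.72, 4.31 and 9.52 at the following stages and 7.23 in adult liver, within 2-fold from e12.5 to adult liver. From clusters found at 1 place alone, which leave out most of its reads, Gstp1 had 0.646, 2.91, 4.31, 4.97 and 4.46 RPM in stage order, with adult liver above e12.5. Its near copy Gstp2 had 8.07, 3.81, 3.23, 5.46 and 2.77. Gsto1, the omega-class enzyme, had 7.27, 3.03, none, 4.30 and 2.77, and Gstt2 had 3.7, none, 6.38, 2.06 and 1.09. The log2 ratios of adult over e12.5 were -1.54 for Gstp2, -1.39 for Gsto1 and -1.77 for Gstt2. On the scale of mRNA cluster reads none of the 3 was 2-fold lower, the log2 ratio of Gsto1 was 0.50 when the second of the 2 lists in the e12.5 table stood alone, and Gstp1 turned from -0.32 to 0.47. Gstm5, below the filter, had clusters at e12.5 (3.10) and e15.5 (4.84) only, which made it the fourth member that was lower without the filter.

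Strong Gst sites are shown for a gene that was higher in adult liver and for genes with strong clusters at e12.5, with the bases of the site in capitals. In adult liver Gstm1 had an 8mer for miR-194-5p, the fourth most abundant miRNA of that table, in a CDS cluster of 106 reads at chr3:108016339-108016360 (minus strand). At e12.5 a cluster of 12 reads lay over this site, and none did at the 3 stages in between.
miR-194-5p: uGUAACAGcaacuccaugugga
Gstm1: cagctcatcatgctCTGTTACA
At e12.5, Gstt2 had an 8mer for miR-540-3p in a 3′UTR cluster of 140 reads at chr10:75831873-75831892 (minus strand), and no cluster overlapped it at a later stage. The number of miR-540-3p in the interaction names was 46617 at e12.5 and 87 in the adult table.
miR-540-3p: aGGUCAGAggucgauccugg
Gstt2: ttccttgagtggTCTGACCA
Gstp1 and Gstp2 had the same miR-324-5p match, of bases 2 to 7 and an unpaired A opposite base 1, with 101 reads each in 1 list of the e12.5 table, at chr19:4037312-4037334 and chr19:4041606-4041628 (minus strand). The stretch is identical in both genes and its central 30 bases occur at 3 places in the genome, so the reads of these genes cannot be told apart.
miR-324-5p: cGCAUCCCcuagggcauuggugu
Gstp1 and Gstp2: gttaccatagatacctGGATGCA

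Sulfotransferases were the last of the 3 families to appear and the lowest. Sult1a1, which sulfates phenols, had no cluster at e12.5 and then 2.12, 9.23, 16.5 and 13.2 RPM. Sult1d1 had none at e12.5 and e15.5 and then 5.15, 8.73 and 11.97. These were the 2 Sult genes past the filter, and in RPM neither changed 2-fold between P7 and adult liver. On the scale of mRNA cluster reads, which adds 0.60 to each log2 ratio of that step, Sult1d1, at 0.46 in RPM, passed 2-fold. Sult2a1, the hydroxysteroid enzyme with the highest mean of its family, had 1.76 RPM at P7 and 3.50 in adult liver and was absent before. Sult5a1 had 1 adult cluster of 1.01 RPM. The remaining 6 Sult genes, Sult1c2, Sult2a2, Sult2a3, Sult2a5, Sult2a6 and Sult2b1, had clusters at P7, in adult liver or in both, and none in an embryonic table. Sult1a1 and Sult1d1 both had a 7-base match to miR-139-5p in their last exon, with 150 and 97 reads in adult liver and 33 and 70 at P7.
miR-139-5p: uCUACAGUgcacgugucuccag
Sult1a1: ggaaaaataccttcACTGTAGc
Sult1d1: ggaagaatcagttcACTGTAGc
These lie on the minus strand at chr7:126673219-126673240 and chr5:87556013-87556034, and each was found at 1 place in the genome. The number of miR-139-5p was 2559, 3612, 16282, 21330 and 31239 from e12.5 to adult liver.

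Near-identical copies limit how far single genes can be separated. The central 30 bases of a member cluster occurred at more than 1 place in the genome for 46.4%, 37.7%, 9.30%, 28.4% and 27.7% of clusters in stage order. These clusters held 90.9% of the Gstp2 reads, 64.1% of those of Gstp1, 88.8% of Gstm2, 89.6% of Ugt2b38, 79.8% of Ugt3a1, 83.6% of Sult2a1, 77.7% of Ugt2b37 and 57.4% of Ugt2b36, whose levels are therefore uncertain. They held 0% for Gsta3, Gstz1, Gstt1, Gstk1, Gsto1, Sult1d1 and Ugt1a1, 3.11% for Ugt2b1, 5.65% for Ugt2b34, 38.8% for Ugt2b5 and 38% for Gstm1. Without them the members had 52.1, 117, 132.5, 293 and 567.7 RPM in stage order.

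The clusters of the members lay in coding sequence more often than those of all genes. In stage order, 84.2% (74.7 to 90.5), 93.2% (83.8 to 97.3), 84.6% (70.3 to 92.8), 88.1% (82.5 to 92.1) and 87.95% (83.8 to 91.1) of member clusters were in the CDS. Over all mRNA clusters the share was 61.4%, 62.8%, 63.4%, 65.5% and 72.9%, below the interval of the members at every stage. In the 3′UTR were 18.3%, 18.6%, 25.6%, 14.2% and 13.7% of member clusters, against 41.5%, 40.4%, 38.0%, 36.9% and 29.7% overall. At e18.5, with 39 clusters, the member interval for the 3′UTR (14.6 to 41.1) included the share of all genes, and at the other 4 stages it did not. A cluster listed under both regions counts in both. The length of coding sequence and 3′UTR was not taken into account.

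**Figure D5:**
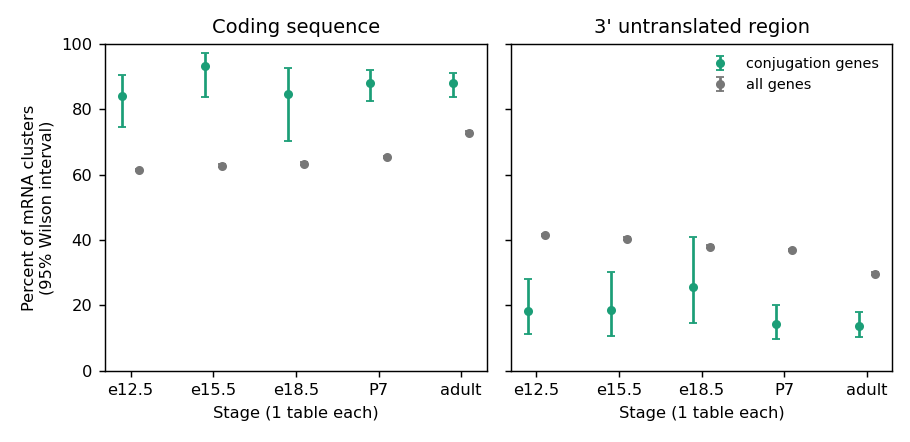
Points give the percent of mRNA clusters listed under coding sequence (left) and 3′UTR (right) at each stage for the conjugation genes (green) and all genes (grey), and bars are 95% Wilson intervals for counting error. The green points lie above the grey ones on the left and below them on the right at all 5 stages, with overlapping intervals in the right panel at e18.5.

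The number of miRNAs with a listed site per member gene had a median of 9, 9, 12, 31.5 and 50 in stage order, counting every 6mer, against 28, 13, 12, 24 and 16 over all genes. Counting the 100 most abundant miRNAs alone, the median was 1, 2, 3, 5.5 and 10, and 46.3%, 45.8%, 33.3%, 39.2% and 43.3% of member clusters had such a site. Over all genes the median was 5, 3, 3, 4 and 4, and the share of clusters was 46.2%, 49.8%, 46.1%, 42.5% and 46.8%, within the intervals of the members at every stage. The member medians count the 9 Ugt1a symbols separately, although these share exons and sites. Each of them had 73 to 141 miRNAs at P7 and 65 to 139 in adult liver, which raises the member medians there. Medians with 1 symbol for the locus were not taken, so an excess of the members over all genes at P7 is not established. Among the 100 most abundant miRNAs of adult liver, miR-27b-3p had sites in 11 member loci and miR-23b-3p in 10, counting every 6mer, and miR-148a-3p and miR-152-3p in 9. With sites of at least 7 bases the order turned, with 6 and 5 loci for the first 2 and 9 for the others. Of the 307 member clusters of adult liver, 4.24% (2.49 to 7.11) had a miR-27b-3p site, against 2.97% (2.83 to 3.12) of all clusters, and 3.58% (2.01 to 6.30) a miR-23b-3p site, against 1.28% (1.18 to 1.37). Near-identical genes add clusters to these shares, so the clusters are not separate observations. The share with a miR-23b-3p site was 6.10% (2.63 to 13.5) of member clusters at e12.5 and 11.9% (5.87 to 22.5) at e15.5, against 1.09% and 1.29% of all clusters. At e18.5 it was 5.13% (1.42 to 16.9), or 2 of 39, against 1.17%. At P7 it was 2.27% (0.887 to 5.70) against 1.01%, which lay inside the member interval. At e12.5, 0 of the 5 member loci with such a site had one of at least 7 bases. Sites of at least 7 bases for miR-27b-3p were in Gstk1, Sult1a1, Ugt2b34, Ugt2b37, Ugt2b38 and Ugt2b5. Among miRNAs of blood cells, miR-142a-3p, miR-451a and miR-144-3p were nearly without sites in the members, while others had some. At e12.5 miR-486b-5p and miR-486a-5p, of rank 7 and 8, had a site of at least 7 bases in Gsto1. In adult liver both had such sites in Ugt2b38 and Ugt2b5. No member cluster in any of the 5 tables had a site of miR-142a-3p or miR-451a, and miR-144-3p had 1, in Gsta4 in adult liver. At e12.5, where these were the 3 most abundant miRNAs, 0 of 82 member clusters had a site of any one of them, which allows a share of up to 4.48% each, against 1.18%, 0.781% and 1.59% of all clusters for miR-142a-3p, miR-451a and miR-144-3p. With so few member clusters the shares could not be told from those of all genes at this depth. In adult liver 0 of 307 had a miR-142a-3p site, an upper bound of 1.24% against 0.742% of all clusters.

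Genes that supply the conjugates, export the products or regulate the enzymes were read from a list of known pathway genes. Of 13 genes of glutathione supply and use, 11 passed the filter, 1 was at least 2-fold higher in adult liver than at e12.5 and 6 were lower. The higher one was Mgst1, a membrane-bound glutathione transferase, with 6.60, 25.1, 71.8, 137 and 246 RPM from e12.5 to adult liver. Mgst3 was among the 6 lower genes, with 19.03, 37.65 and 8.15 RPM in the embryonic tables and no cluster at P7 or in adult liver. Gclm, the modifier subunit of the enzyme that limits glutathione synthesis, had 69.3, 75.7, 68.6, 10.9 and 5.59, and Gpx1, a peroxidase that is abundant in red cells, had 389.5, 719, 258, 53.5 and 51.7. Of the 4 genes of glucuronate supply, 3 were higher, led by Ugdh, which makes UDP-glucuronic acid and had 8.78, 3.39, 35.4, 56.9 and 89.3, while Gusb, which removes glucuronic acid, was lower at 9.18 and 3.90. Of 5 genes of sulfate supply and removal past the filter, 3 were higher and 0 lower. Papss2, which makes the sulfate donor, had none at e12.5 and 4.48, 11.4, 29.6 and 31.3 afterwards.

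Of the 4 export pumps, 3 were at least 2-fold higher in adult liver. Abcc3, which returns glucuronides to blood, had 0.981 RPM at e12.5, 5.75, 0.615 and 14.7 in between and 83.2 in adult liver, and Abcc2, which moves conjugates into bile, 11.6, 15.9, 52.4, 99.3 and 67.6. Abcg2, which is also present in blood precursors, was lower, at 68.1 and 5.91. Of 7 regulators past the filter, 4 were higher and 2 lower. Ahr, a receptor for aromatic compounds, had 8.07 and 48.7 RPM at these 2 stages, and Hnf4a, a hepatocyte transcription factor, 10.4 and 39.7. Nfe2l2 and its inhibitor Keap1, which govern Gst and Gclm expression, had 29.3 and 13.5 RPM and 13.02 and 5.35 RPM, log2 ratios of -1.12 and -1.28 that became -0.33 and -0.49 on the scale of mRNA cluster reads. On that scale 5 regulators were higher and 0 lower, all 5 genes of sulfate supply and removal were higher, 0 genes of glucuronate supply were lower (Gusb at -0.45), and the genes of glutathione supply and use had 6 lower and, among genes with an adult cluster, Mgst1 higher. The counts in RPM are to be read against the 21.3% of all genes that were higher and 53% that were lower, and those on the scale of mRNA cluster reads against 29.8% and 40.4%.

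Each embryonic table held 2 lists of clusters that the labels do not describe, and the members differed between them. The first list gave 120, 160 and 162 RPM at the embryonic stages and the second 61.1, 135 and 65.2. Of the member genes, 13, 4 and 15 were in both lists. Ugt1a1 at e18.5 was in both, at 59.4 and 22.2 RPM, and Gsta3 likewise at 17.3 and 10.4. Ugt2b36 at e12.5 had 10.7 in the first and 0.699 in the second list, and at e15.5 none in the first and 12.49 in the second. Every list of the embryonic tables lay below the 345.8 RPM of P7 and the 811 of adult liver.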

How the data were processed

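Ago HITS-CLIP tables of mouse liver at 5 stages, 1 per stage, were analysed. The authors trimmed reads with the FASTX-Toolkit, mapped them with Bowtie (labels name mm9 and mm10 as builds, the methods mm10), joined overlapping reads into clusters, annotated them and searched them for seed matches of miRBase miRNAs. Deposited by the authors as a signal, read numbers are whole numbers of at least 5 that are not scaled to library size. The header of that column differs at e12.5 (read number in the miRNA target, elsewhere in the peak). Its value can differ among sites of 1 cluster, and the highest was taken. The conservation deposited by the authors is a fraction from 0 to 1 and was not used for a result, and the free energy deposited by the authors is a score and was not used. The number in each interaction name, taken as reads of the miRNA, is likewise unscaled. The methods name 2 biological replicates, and the study lists a second library at e18.5, which the labels do not separate, so no test across samples was made.

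Entries whose gene column holds a member symbol under CDS, 3′UTR or 5′UTR were taken. In the embryonic tables, clusters of both lists that overlapped on 1 strand were counted once and reads were added. Coordinates were checked against GRCm38: 4646 of 4646 listed fragments of members lay at their listed site. The 30 central bases of each cluster were searched exactly in the primary chromosomes. Python 3.11.15, numpy 2.4.6, scipy 1.17.1 (Wilson intervals), numba 0.67.0 and matplotlib 3.10.9 were used, and the ratios were tested on simulated data. Genes were named if among the 12 members with the highest mean, the highest of each family, or past the filter and 2-fold apart, while Gstm5, the low Sult genes, miR-148a-3p and the sites shown were chosen after their values were seen. The members and lists were chosen with earlier results of these data known. Alternatives were a minimum of 10 reads, seed matches of 7 or 8 bases, each list alone, clusters of 1 symbol, clusters at 1 place, other denominators (the library totals of the study, mRNA cluster reads), other filters, the highest cluster of a gene, every listed region and 4-fold. The library total of e18.5 is that of its first library. The denominator of mRNA cluster reads, for the fold comparisons, and that of both e18.5 libraries were added after seeing the data. Single values of some marker genes are not reported here.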

Additional observations from a re-analysis of the deposited data

Results flagged for a closer look

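Clusters listed for the members outside CDS, 3′UTR and 5′UTR were not part of the comparisons. In stage order there were 26, 5, 10, 21 and 22, with 17.1, 5.45, 25.8, 17.8 and 16.6 RPM, and all but 1, at P7, were listed for the members under introns alone. The largest lay in an intron of Gstp1 in the e12.5 table (155 reads), of Sult2a2 in the e15.5 table (38 reads), of Gstm6 in the e18.5 table (85 reads) and of Ugt1a symbols in the P7 and adult tables (43 and 66 reads). Those of Sult2a2 and of adult Ugt1a were also listed under an exon of another gene. These tables have no control precipitation, and the signal is above 0 only in the sense that each listed cluster has at least 5 reads.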

How the results depend on the processing

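Under every alternative that gave member levels for all 5 tables, adult liver was highest and P7 next; levels follow in stage order unless said otherwise. Sites of at least 7 matched bases gave 66.44, 98.01, 111.3, 314 and 740.6 RPM, 39 clusters at e15.5, and 3, 4, 14 and 24 miRNAs per gene from e15.5 on. The 100 most abundant miRNAs gave 1, 2, 3, 5.5 and 10 per gene. Clusters found at 1 place gave 52.09, 117.1, 132.5, 293.3 and 567.7 RPM, with 49 and 36 clusters in the first 2 tables. The library totals of the study gave 53.2, 88.35, 83.72, 282 and 661.4 RPM, with 15.9 at e18.5 (and 0 members lower at P7) when the further e18.5 library that the study lists was added to its total, a choice made after seeing the data. The values were, with mRNA cluster reads as denominator, 345.6, 478, 472.6, 1689.5 and 6023.6. Every listed region gave 97.64, 167.7, 363.6 and 827.9 RPM at e12.5, e18.5, P7 and in adult liver. Clusters of at least 10 reads gave 327.5 RPM at P7. Clusters of a single symbol, which leave out all Ugt1a clusters that overlap an entry of another symbol, gave 83.41, 216.5 and 620.2 RPM at the last 3 stages and 16 genes at e18.5. The first list alone gave 120, 160 and 162 RPM, 26, 5 and 24 clusters, 15 and 4 genes at e12.5 and e15.5, and a CDS share of 100% at e15.5. The second list alone gave 61.05, 135.2 and 65.19 RPM and 19 clusters at e18.5.

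For adult liver against e12.5 the median log2 ratio of 5.87 became 6.17 with library totals or the second list alone, 6.66 with mRNA cluster reads, 4.70 without the filter or with single symbols, 6.43 with a filter of 10 RPM, 5.35 with the highest cluster of a gene, 5.45 with the first list and 4.91 with every region. The filter of 10 RPM left 16 members higher and 0 lower, mRNA cluster reads and 4-fold each left 0 lower, and the highest cluster left 1 lower. The members higher at P7 than at e18.5 numbered 10 at 4-fold, 13 with single symbols, 12 (0 lower) with the filter of 10 RPM and 7 with the highest cluster. Those higher in adult liver than at P7 numbered 7, 14 and 13 under the first 3 of these settings and 14 with every region, where 1 was lower, and 3 were lower without the filter. Gsto1 turned from -1.39 to 0.50 with the second list alone. The causes of these shifts were not tested. No paired analysis was possible because each stage has 1 table and the labels give no replicate numbers. The study lists a second library for e18.5 alone, and nothing says which of the 2 lists of that table, if any, holds it. Leaving out a replicate was not possible for the same reason. Clusters with few reads, above all in the embryonic tables, limit what can be said of single genes.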
